A study of Mus musculus with 2 samples.

Results

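Hmgcs1, Fdps, Fdft1, Sqle, Lss, Cyp51 and Dhcr7 encode enzymes of the pathway that builds cholesterol. They were chosen by name and read from their rows in the 2 single-cell count tables of the study, where all 7 were found among 36547 genes. One table held testis cells of a 12-week-old wild-type (WT) mouse and the other those of an age-matched Alkbh5-/- (KO) mouse, both C57BL/6. Alkbh5 encodes an eraser of N6-methyladenosine from RNA, and homozygous KO mice came from crosses of heterozygous parents, with no allele limited to a cell type described. The methods speak of testes from several mice per genotype and other passages of a single mouse, so the number of animals behind each library is unclear. There was 1 library per genotype, so no difference between WT and KO was tested, and every interval given here is a 95% interval that covers counting error only. Although the 7 genes were grouped as synthesis and uptake genes, all of them act in synthesis, and uptake genes are given as a separate list.

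The first steps of the pathway join acetyl units to HMG-CoA and reduce it to mevalonate, from which isoprenoid units are made. Farnesyl diphosphate, the last product shared with the branches that lead to ubiquinone, dolichol and prenylated proteins, is then committed to sterols by its conversion to squalene. Squalene is oxidized and folded into lanosterol, which is demethylated and remodelled to cholesterol. When membrane sterol is low, the transcription factor SREBP2 is released from the endoplasmic reticulum and switches on these genes together. In the testis, Leydig cells use cholesterol to make testosterone, and Sertoli cells support the germ cells in the tubule. Male germ cells are known to accumulate sterol intermediates, among them meiosis-activating sterols, which are formed from the Cyp51 step onward.

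All 7 are protein-coding genes in GENCODE vM21 on GRCm38. Hmgcs1 lies at chr13:119690379-119708260, Sqle at chr15:59315077-59331192, Lss at chr10:76531588-76557138 and Dhcr7 at chr7:143823145-143848410, all on the plus strand. Fdps lies at chr3:89093588-89101959, Fdft1 at chr14:63145150-63179578 and Cyp51 at chr5:4081145-4104746, all on the minus strand. In the RefSeq annotation of GRCm38.p6, windows of 300 bases from 250 before to 50 after a transcription start were matched for 4 of the 7 genes: Hmgcs1, Lss, Cyp51 and Dhcr7. They were searched on both strands for the sterol regulatory element TCACNCCAC, the CCAAT box bound by NF-Y, and TGACG, the core of the cAMP response element. The 3 printed windows show the gene with the sterol element beside 2 without it, and capitals mark every match on either strand. No match overlapped another.
Hmgcs1 (chr13:119690101-119690400, plus strand): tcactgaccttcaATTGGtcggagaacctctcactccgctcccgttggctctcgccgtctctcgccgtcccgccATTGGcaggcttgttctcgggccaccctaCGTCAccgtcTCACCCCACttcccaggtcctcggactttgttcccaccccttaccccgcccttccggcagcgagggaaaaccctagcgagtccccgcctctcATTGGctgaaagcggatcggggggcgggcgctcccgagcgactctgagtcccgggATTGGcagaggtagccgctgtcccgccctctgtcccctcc
Lss (chr10:76531355-76531654, plus strand): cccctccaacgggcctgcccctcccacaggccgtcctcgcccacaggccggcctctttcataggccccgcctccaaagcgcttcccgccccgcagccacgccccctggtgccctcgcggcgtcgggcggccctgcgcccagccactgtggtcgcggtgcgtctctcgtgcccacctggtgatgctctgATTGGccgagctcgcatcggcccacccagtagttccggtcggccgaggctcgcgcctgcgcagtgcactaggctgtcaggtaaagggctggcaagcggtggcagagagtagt
Cyp51 (chr5:4104648-4104947, minus strand): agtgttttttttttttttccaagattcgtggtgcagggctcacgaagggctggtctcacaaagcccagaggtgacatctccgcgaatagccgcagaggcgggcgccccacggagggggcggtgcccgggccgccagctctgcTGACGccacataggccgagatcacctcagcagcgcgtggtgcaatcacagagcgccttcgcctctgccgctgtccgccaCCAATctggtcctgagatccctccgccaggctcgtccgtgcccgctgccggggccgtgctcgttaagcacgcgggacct
The 4 genes had 6 windows, of which 3 belong to Dhcr7. The sterol element was found in the Hmgcs1 window only, 137 bases before the start, and was present in 1.24% of 32851 windows of the same length. A CCAAT box was found in 4 of the 6 windows, among them 1 of the 3 of Dhcr7, against 37.4% of all windows, and the TGACG core was found in 2 of the 6, those of Hmgcs1 and Cyp51, against 20.8%. Among 15 other enzymes of the pathway, 13 had a window, 14 in all, and 0, 11 and 4 of these windows held the sterol element, the CCAAT box and the TGACG core. A match is a run of letters in this window and does not show binding, and a window without one says nothing of the factor.

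The WT library held 5756 barcodes and the KO library 7012, with 80283221 and 82056760 unique molecular identifiers (UMIs, each counting 1 captured RNA molecule) and medians of 10905.5 and 9117.5 UMIs per cell. Alkbh5 had 607 UMIs in WT and 5 in KO. Cell classes were rebuilt by clustering, and a class was named only from its marker genes, so "-like" marks a rebuilt name. A pair of germ cell clusters whose markers did not decide a name are called by a leading gene, the Ssxb1 cluster, whose markers were nearest to late spermatocytes and then round spermatids, and the Cst13 cluster. Leydig-like cells made up 1.65% of WT cells (95 cells) and 16.9% of KO cells (1182 cells), with 18 of 20 Leydig markers detected. Sertoli-like cells numbered 50 in WT and 482 in KO, with all 20 of their markers detected. The 2 libraries shared 45 barcodes. Levels are given as CPM, the UMIs of a gene divided by all UMIs of its class in that library and scaled to a common total of 1000000.

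Leydig-like cells held the highest level of Hmgcs1, Fdps, Sqle, Lss, Cyp51 and Dhcr7 in WT and KO among the 9 classes compared, while Fdft1, at the branch point to sterols, was higher in 3 groups of germ cells than in Leydig-like cells. In WT the counting interval of Fdps, on 16 UMIs, overlapped that of the next class, the Cst13 cluster. That of Sqle in WT overlapped the interval of the Ssxb1 cluster. Hmgcs1, the HMG-CoA synthase of the cytosol, stood at 270.2 CPM in Leydig-like cells of the WT library and at 302 in those of the KO library. Lss, which folds oxidized squalene into lanosterol, stood at 36.5 and 41.6 CPM, and Sqle, the squalene epoxidase, at 137.5 and 148. All 3 genes therefore had close levels in the libraries, with log2 ratios of KO to WT of 0.16 (-0.02 to 0.34) for Hmgcs1, 0.19 (-0.29 to 0.70) for Lss and 0.11 (-0.14 to 0.37) for Sqle, each with an interval that includes 0.

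Fdft1, the squalene synthase, was at 279 CPM in Leydig-like cells of both libraries, a log2 ratio of 0.00 (-0.17 to 0.18). Cyp51, the lanosterol 14-alpha-demethylase, was at 309.7 CPM in WT and 396 in KO, a log2 ratio of 0.36 (0.19 to 0.52). Dhcr7, the reductase of the last step of one route to cholesterol, was at 166 CPM in WT and 119 in KO, a log2 ratio of -0.49 (-0.72 to -0.25). Cyp51 was thus higher and Dhcr7 lower in KO beyond counting error, and both stayed within 1.5-fold. Fdps, the farnesyl diphosphate synthase, was at 15.4 CPM in WT on 16 UMIs and at 29.96 in KO on 310 UMIs, a log2 ratio of 0.96 (0.24 to 1.79).

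Fdps was the only 1 of the 7 genes past a 1.5-fold difference in Leydig-like cells, where 36.0% of the 10354 genes with at least 50 UMIs over both libraries were past it in either direction. The median log2 ratio was 0.16 over the 7 genes and -0.04 over all genes counted. At a finer clustering, which split off 18 WT and 105 KO cells as stromal and peritubular-like, the log2 ratio was 0.19 for Cyp51, -0.68 for Dhcr7, 0.91 for Fdps and 0.01 for Hmgcs1. Dhcr7 was then past 1.5-fold, and Fdps remained so.

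**Figure D1:**
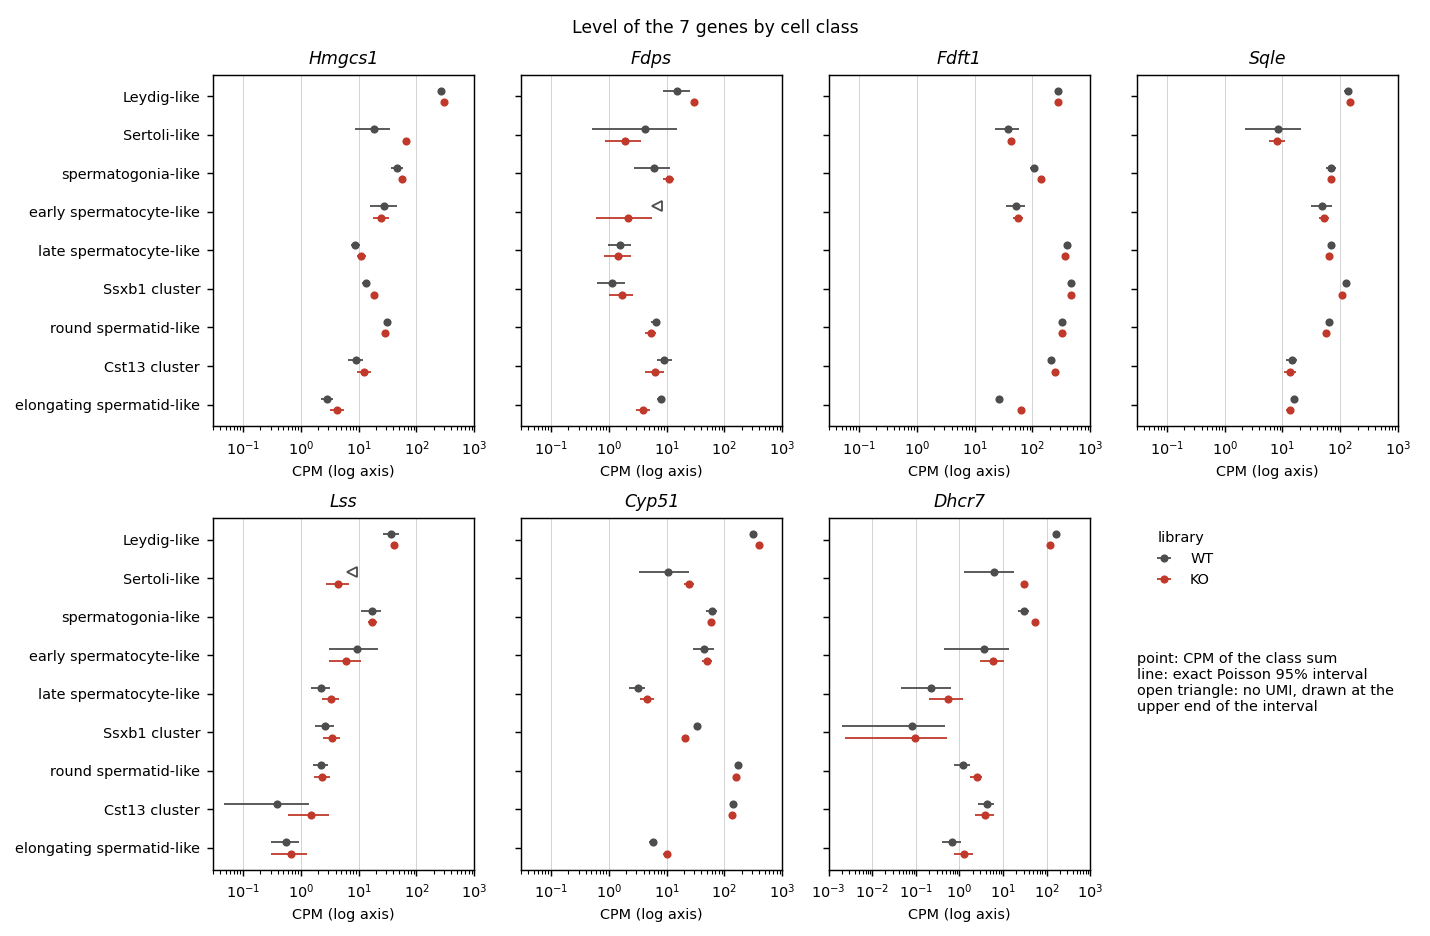
CPM of each of the 7 genes in each cell class on a log axis, WT and KO side by side, with bars for the 95% counting interval of the summed UMIs. In Leydig-like cells Hmgcs1 stands at 270.2 CPM in WT and 302 in KO, and Cyp51 at 309.7 and 396. Fdft1 reaches 460.2 CPM in WT and 461 in KO in the Ssxb1 cluster.

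Other enzymes of the pathway stood on both sides of the WT level in KO Leydig-like cells. Of 15 listed, 14 were counted, 2 were higher in KO past 1.5-fold (Lbr and Ebp), 2 were lower (Mvd and Idi1), and the median log2 ratio was 0.08. Lbr rests on 4 UMIs in WT, with an interval that includes 0 (-0.42 to 2.90). Ebp, a sterol isomerase, was at 156 CPM in WT and 259 in KO, and Msmo1, a sterol demethylase and the enzyme of the list with the highest level, was at 594 and 632. Idi1, the isopentenyl diphosphate isomerase, was at 60.6 and 36.0 CPM, and Mvd, the mevalonate decarboxylase, at 41.4 and 26.4. Of 11 genes counted for the branches from farnesyl diphosphate that make no sterol, 2 were higher (Pdss2 and Dhdds) and 1 lower (Icmt), and of 11 fatty acid genes under SREBP, 3 were higher (Acaca, Fasn and Scd1) and 1 lower (Acsl1). The intervals of Pdss2, Dhdds and Acaca, on 3, 5 and 5 UMIs in WT, include 0. Acsl1 was lower past 1.5-fold also in Sertoli-like, spermatogonia-like and early spermatocyte-like cells.

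Among uptake and storage genes, Scarb1 and Soat1 were lower in KO Leydig-like cells. Scarb1, the receptor for high-density lipoprotein, had 188 CPM in WT and 78.4 in KO, a log2 ratio of -1.26 (-1.49 to -1.03). Soat1, which esterifies cholesterol for storage, was at 315 and 176 CPM, a log2 ratio of -0.84 (-1.01 to -0.67). Of 15 counted genes of uptake, transport and storage, 4 were lower past 1.5-fold (Scarb1, Soat1, Lipe and Osbp). The list as a whole was not lower: 10 of the 15 had a log2 ratio above 0. Its median was 0.20, against -0.04 over all genes counted. Lipe was lower past 1.5-fold also in Sertoli-like cells (154 CPM in WT and 45.8 in KO), spermatogonia-like cells, early spermatocyte-like cells and the Ssxb1 cluster.

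Among 11 counted genes that sense sterols or regulate the pathway, Srebf1, Mbtps1 and Nr1h3 were higher in KO Leydig-like cells past 1.5-fold and Creb3l4 and Crem lower. The 3 higher genes had 9, 9 and 1 UMIs in WT and intervals that include 0, while the intervals of Creb3l4 (-2.14 to -1.54) and Crem (-1.66 to -1.10) do not. Creb3l4 and Crem were also lower past 1.5-fold in Sertoli-like, spermatogonia-like and early spermatocyte-like cells, and not in the other germ cell groups. In Sertoli-like cells Creb3l4 was at 152 CPM in WT and 71.1 in KO, and Crem at 68.6 and 44.6. Srebf2, which encodes SREBP2, was at 15.4 CPM in WT on 16 UMIs and 18.9 in KO, and Insig1, which retains SREBP in the endoplasmic reticulum and is itself an SREBP target, was at 113 and 76.5. For efflux, Apoe and Abca1 were past 1.5-fold of 3 genes counted. Apoe, a lipoprotein carrier that macrophages also make, was at 486 CPM in WT and 1331 in KO, and Abca1 at 111 and 181. Of 10 steroid hormone genes, several of which had named the class, Hsd3b6 was higher past 1.5-fold and Cyp11a1, Cyp17a1 and Srd5a1 were lower.

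**Figure D2:**
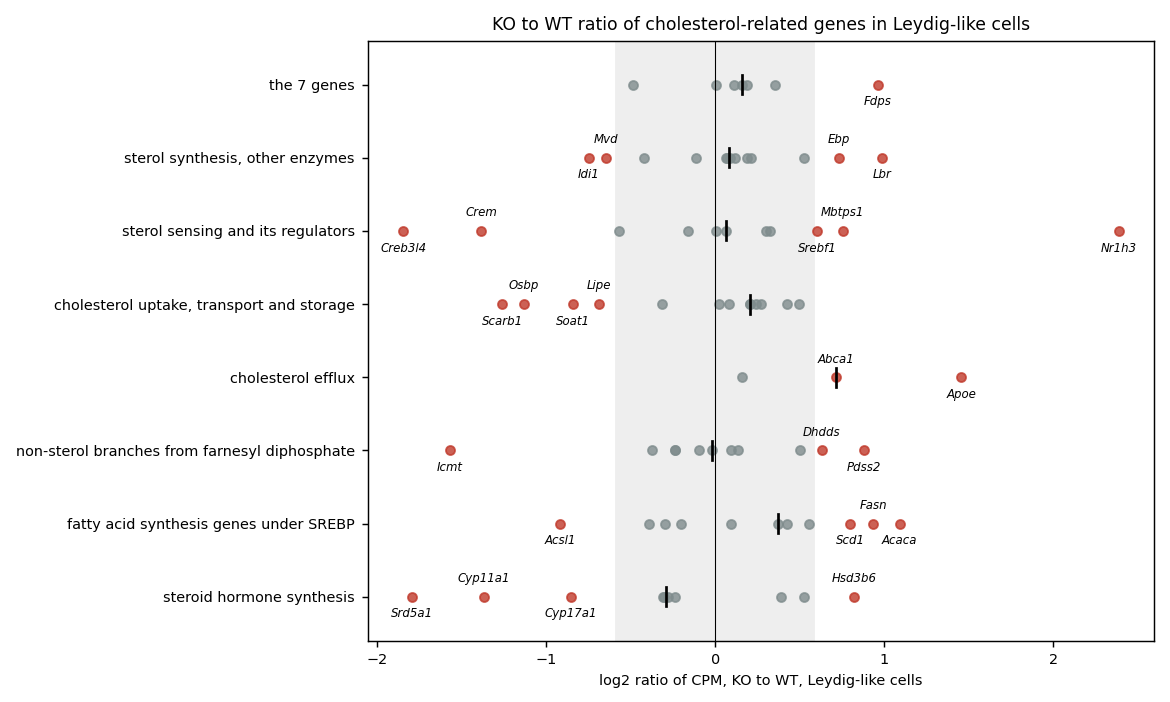
Log2 ratio of KO to WT in Leydig-like cells for the genes of each list with at least 50 UMIs, 1 point a gene, with a bar for the median of all counted genes of the list; 3 genes among the other enzymes and the uptake genes are not drawn. The 7 genes lie between -0.49 (Dhcr7) and 0.96 (Fdps), and Scarb1 lies lower, at -1.26.

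RNA of other cells was present in Leydig-like cells of both libraries. The 25 elongating spermatid markers stood at a median of 6.97% of their own level in WT and 5.31% in KO, and their part in the ratios was not tested. No other row began with the symbol of one of the 7 genes.

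Counted cell by cell, the 7 genes were spread thinly. After each cell was thinned to 5000 UMIs, Leydig-like cells held a median of 5 UMIs of the 7 genes together in WT (quartiles 2 and 9) and 6 in KO (3 and 9), with 48 shallower KO cells left out. The median was 3 in the Ssxb1 cluster and in round spermatid-like cells of both libraries, 0 in WT and 1 in KO Sertoli-like cells, and 0 in elongating spermatid-like cells of both. Within Leydig-like cells the Spearman correlation of 21 gene pairs had a median of 0.15 in 95 WT cells and 0.10 in 1134 KO cells, which at these counts is no finding.

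**Figure D3:**
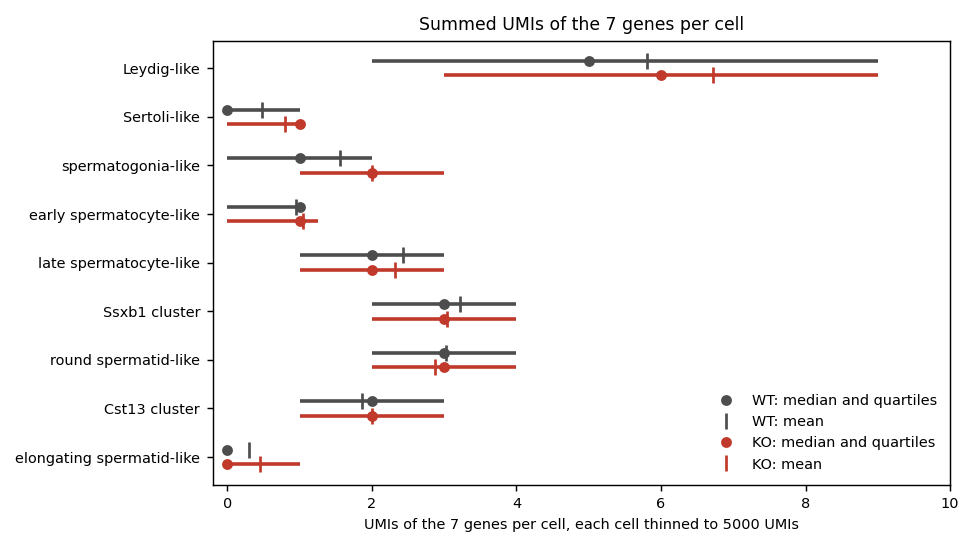
UMIs of the 7 genes together per cell after thinning to 5000 UMIs, by class and library. Leydig-like cells have the highest medians, 5 in WT and 6 in KO, and elongating spermatid-like cells have a median of 0.

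Over the whole libraries, without division into classes, Dhcr7, Lss and Hmgcs1 were over 3-fold higher in KO, while Fdft1 was at a like level in both. Dhcr7 stood at 3.64 CPM over all cells in WT and 23.0 in KO, which was 6.32-fold (5.59 to 7.18). Hmgcs1 stood at 17.4 and 58.9 CPM, 3.397-fold (3.20 to 3.61), and Lss at 2.38 and 8.77 CPM, 3.69-fold. Fdft1 stood at 246 and 255 CPM, 1.04-fold. Cyp51 was at 1.58-fold, Fdps at 1.35-fold and Sqle at 1.13-fold. The UMIs of Leydig-like cells were 1.30% of the WT library and 12.6% of the KO library, and gave 59.3% of all Dhcr7 UMIs in WT and 65.1% in KO, but 1.47% and 13.8% of Fdft1 UMIs. The KO levels of each class were also weighted by the WT share of UMIs of that class. The KO to WT fold was then 1.15 for Dhcr7, 1.13 for Hmgcs1, 1.22 for Lss and 1.05 for Fdft1. It was 0.95 for Cyp51, 0.88 for Sqle and 0.74 for Fdps, which had been above 1 without the weighting. In the undivided library, more cells of a type and more RNA per cell cannot be told apart.

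In Sertoli-like cells each of the 7 genes stood under its Leydig-like level in both libraries, and the WT values rest on 50 cells. Hmgcs1 was at 18.7 CPM in WT on 9 UMIs and at 64.6 in KO on 309 UMIs. Dhcr7 was at 6.23 CPM on 3 UMIs and at 29.9 on 143 UMIs, and Cyp51 at 10.4 on 5 UMIs and at 24.5 on 117. These 3 of the 4 genes counted were higher in KO past 1.5-fold, where 76.3% of all genes counted in this class were past it. Fdft1, the fourth, was at 37.4 CPM in WT and 43.3 in KO. Fdps had 2 and 9 UMIs, Sqle 4 and 39, and Lss 0 and 21, so these carried no ratio.

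The log2 ratios in Sertoli-like cells were 1.79 (0.846 to 2.93) for Hmgcs1, 2.26 (0.69 to 4.56) for Dhcr7, 1.24 (-0.03 to 2.89) for Cyp51 and 0.21 (-0.48 to 0.99) for Fdft1. The median of all genes counted was 0.835. Relative to that median Hmgcs1 and Dhcr7 stood higher and Fdft1 lower. The intervals of Dhcr7 and Fdft1 include it, and that of Hmgcs1 begins just above it. With TMM factors the ratio of Fdft1 was -0.56. That of Cyp51 was 0.46 with TMM factors and 0.43 with median-of-ratios factors, within 1.5-fold in both. Elongating spermatid markers summed to 171006 CPM in the WT Sertoli-like cells and 40832 in the KO cells, medians of 52.9% and 15.98% of their own level with all 25 present. Leydig markers summed to 704 and 2006 CPM, medians of 0.12% and 1.41% of their own level. The highest single Leydig marker stood at 686% and 1179% of its Leydig-like level, which weighs on the sums. The part of either marker set in these ratios was not tested. Of 7 other sterol enzymes counted, 5 were higher past 1.5-fold, among them Msmo1, at 20.8 CPM in WT and 80.8 in KO.

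**Figure D4:**
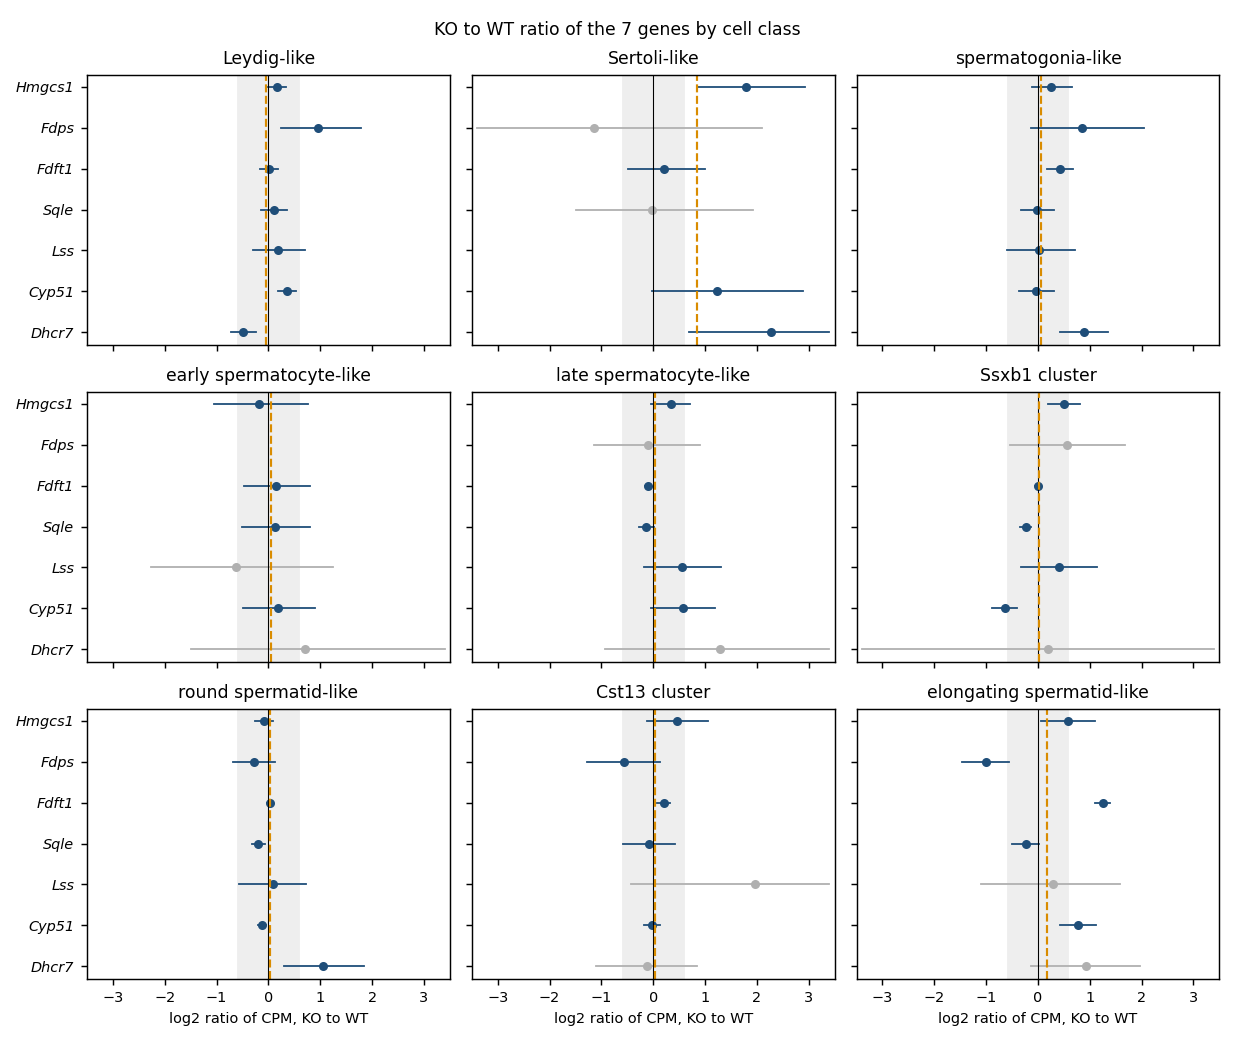
Log2 ratio of KO to WT CPM for each of the 7 genes by class with its 95% counting interval, points in grey where both sums held under 50 UMIs together, a band for differences within 1.5-fold and a dashed line for the median of all genes. The Sertoli-like median of 0.84 lies far from the others, and Fdft1 stands at 1.25 in elongating spermatid-like cells. Lines end at the axis limits, and ratios against 0 are not drawn.

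Along the germ cell classes the 7 genes followed different courses, with Fdft1 highest in late spermatocyte-like cells and the Ssxb1 cluster and Dhcr7 highest in spermatogonia-like cells. Spermatogonia-like cells held all 7 genes at moderate levels, with Hmgcs1 at 46.4 CPM in WT and 55.5 in KO, Sqle at 68.6 and 67.8, Lss at 16.8 and 17.1 and Cyp51 at 60.5 and 59.3. Dhcr7 was at 30.3 CPM in WT on 45 UMIs and at 55.6 in KO on 416 UMIs, a log2 ratio of 0.88 (0.43 to 1.36). Fdps was at 6.05 and 10.97 CPM, a log2 ratio of 0.86 (-0.14 to 2.04). Fdft1 was at 108 and 144 CPM, a log2 ratio of 0.42 (0.18 to 0.67) that became 0.79 when called doublets were removed.

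Dhcr7 and Fdps were the 2 of 7 genes past 1.5-fold in spermatogonia-like cells, where 27.6% of all genes counted were past it, and both were higher in KO. A finer cluster inside this class held 12 WT and 208 KO cells, and without it Dhcr7 was at 27.8 CPM in WT and 46.6 in KO. Of 12 other sterol enzymes counted, 4 were higher in KO past 1.5-fold (Acat2, Mvk, Mvd and Msmo1) and none lower. Elongating spermatid markers stood at a median of 14.1% of their own level in WT and 8.24% in KO in this class. Leydig markers summed to 45.7 CPM in WT and 235 in KO, medians of 0.04% and 0.30% of their own level, and the part of either in these ratios was not tested.

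Early spermatocyte-like cells, 67 in WT and 267 in KO, had none of 4 counted genes past 1.5-fold, against 26.3% of all genes counted. Fdft1 stood at 52.1 CPM in WT and 57.5 in KO, Sqle at 48.3 and 52.6 and Cyp51 at 44.6 and 50.4. Hmgcs1 stood at 27.9 and 24.6 CPM. Dhcr7 stood at 3.72 CPM on 2 UMIs in WT and 6.02 in KO on 11, under its level in spermatogonia-like cells in both libraries.

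In late spermatocyte-like cells the 7 genes lay far apart. Fdft1 stood at 397 CPM in WT and 371 in KO, and Sqle at 69.9 and 63.8, whereas Cyp51 stood at 3.14 and 4.67 and Dhcr7 at 0.22 and 0.55. Relative to their own Leydig-like levels, Fdft1 was at 142% in WT and 133% in KO, Cyp51 at 1.01% and 1.18%, and Dhcr7 at 0.13% and 0.46%. None of 5 counted genes was past 1.5-fold between the libraries, against 16.7% of all genes counted. The class joined a cluster led by Nutm2, with Fdft1 at 495 and 512 CPM, and one led by BC049730 and Piwil1, with Fdft1 at 244 and 220.1 CPM.

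In the Ssxb1 cluster Fdft1 stood at 165% of its Leydig-like value for each library, its highest level among the 9 classes and under its level in the Nutm2 cluster alone, and Sqle stood at 127 CPM in WT and 108 in KO, 92.4% and 72.7% of its Leydig-like level, with counting intervals that overlapped the Leydig-like ones in WT and not in KO. Hmgcs1 stood at 13.2 and 18.6 CPM, a log2 ratio of 0.50. Cyp51 stood at 33.1 CPM in WT and 21.2 in KO, a log2 ratio of -0.65 (-0.89 to -0.41). Dhcr7 had 1 UMI in WT and 1 in KO. Cyp51 was the 1 of 5 counted genes past 1.5-fold, lower in KO, against 15.7% of all genes counted. Without integration its ratio was -0.54, within 1.5-fold. At resolution 0.8 no Ssxb1 cluster was named, so the Cyp51 ratio has no counterpart there. Ssxb1 was then a leading gene of a round spermatid-like cluster (454 WT and 418 KO cells) and of a late spermatocyte-like cluster (345 WT and 338 KO cells).

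Cyp51 was high again in round spermatid-like cells, at 171 CPM in WT and 156 in KO, 55.2% and 39.4% of its Leydig-like level. It was higher in the cluster led by Cd46, at 239 and 231 CPM, than in the other cluster of this class, at 131 and 108 CPM. Fdft1 stood at 321 and 326 CPM and Sqle at 64.0 and 55.7, while Lss stood at 2.22 and 2.35. Dhcr7 stood at 1.19 CPM in WT and 2.47 in KO, a log2 ratio of 1.06 (0.30 to 1.84), and was the 1 of 7 genes past 1.5-fold, against 21.6% of all genes counted. Clustered without integration of the libraries, its ratio was -0.12, over a different set of cells. The class then joined a cluster of 1069 WT and 72 KO cells and one of 4 WT and 793 KO cells. Leydig markers summed to 15.5 CPM in WT and 213 in KO in this class, medians of 0.03% and 0.30% of their own level, and their part in the Dhcr7 values was not tested.

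In the Cst13 cluster none of 5 counted genes was past 1.5-fold, against 21.1% of all genes counted. Cyp51 stood at 138 CPM in WT and 135 in KO, and Fdft1 at 212 and 244. Sqle stood at 14.5 and 13.7 CPM, Fdps at 9.17 and 6.20, and Lss at 0.38 and 1.50.

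**Figure D5:**
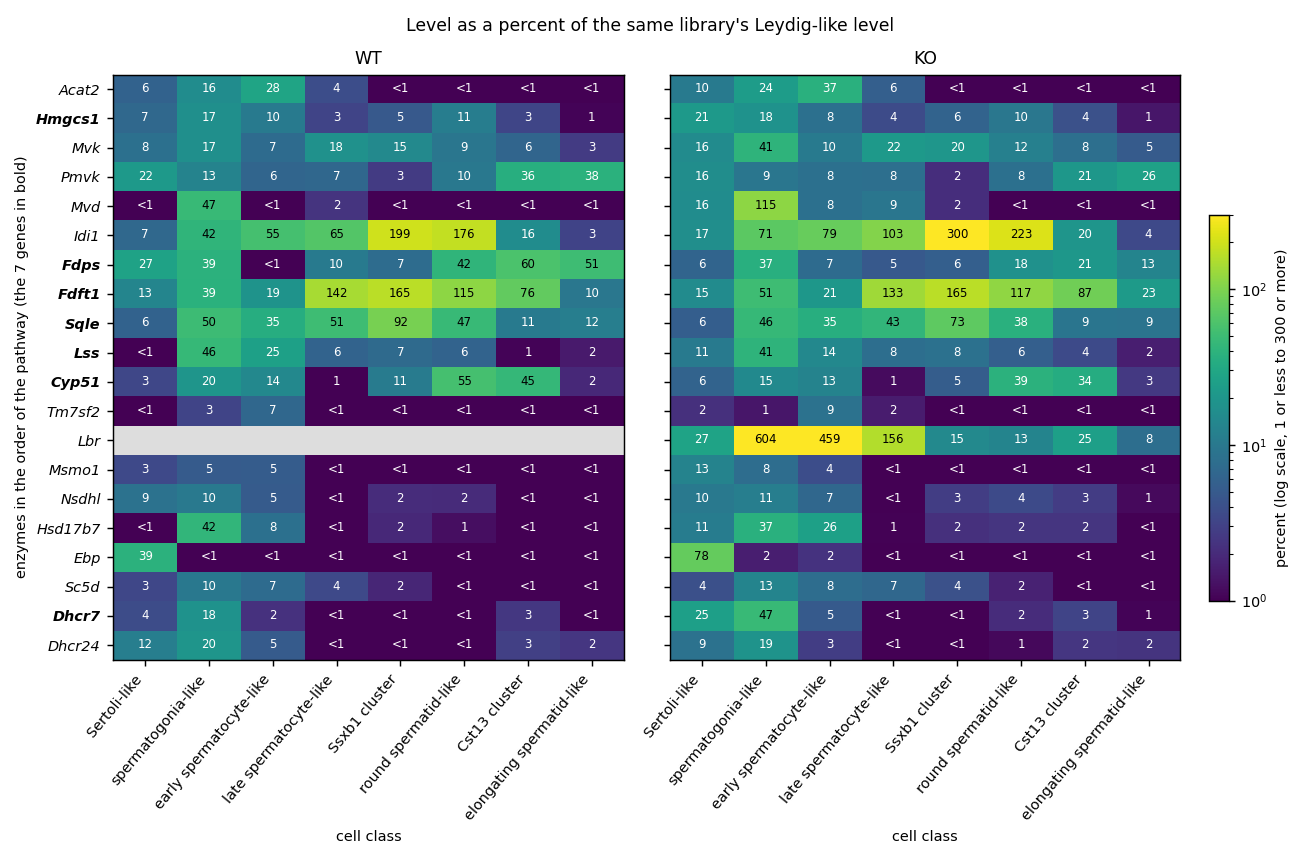
Level of 20 sterol synthesis enzymes in each class as a percentage of its own Leydig-like level, with WT and KO panels, values of 300 or more drawn as 300 and Lbr in grey in WT, where its Leydig-like level rests on 4 UMIs. Fdft1 exceeds 100 in late spermatocyte-like cells (142 in WT and 133 in KO), while most of the enzymes stand under 10 in that class and the later germ cell groups. In spermatogonia-like cells most stand above 10.

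Elongating spermatid-like cells held low levels of all 7 genes, and 3 of the 5 counted were past 1.5-fold between the libraries, against 30.2% of all genes counted, with a median log2 ratio of 0.18 over all genes. Fdft1 stood at 26.5 CPM in WT and 62.9 in KO, a log2 ratio of 1.25 (1.10 to 1.40). Cyp51 stood at 5.92 and 10.1 CPM, a log2 ratio of 0.78 (0.43 to 1.12). Fdps stood at 7.89 and 3.95 CPM, a log2 ratio of -0.998 (-1.46 to -0.55), the reverse of its direction in Leydig-like cells, and one of -0.54 without integration, within 1.5-fold. Hmgcs1 stood at 2.84 and 4.25 CPM and Sqle at 15.8 and 13.4, both within 1.5-fold, although Hmgcs1 reached a log2 ratio of 1.22 without integration, and Lss and Dhcr7 stayed under 50 UMIs. Without integration the class also took in a cluster led by Gm30302, with 328 WT and 248 KO cells, so its set of cells differed.

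The class joined 4 clusters that took different shares of the cells in the 2 libraries. Fdft1 stood at 70.4 CPM in WT and 121 in KO in the cluster led by 1700036O09Rik and Prss58, which held 545 WT and 492 KO cells. It stood at 12.9 and 26.6 CPM in the cluster led by Tnp2, at 6.90 and 8.45 in the one led by Prm1, and at 7.63 and 8.37 in the one that held Spem2 among its leading genes, with 561 WT and 155 KO cells. Fdft1 was thus higher in KO past 1.5-fold in the first 2 of these clusters, while in the Prm1 and Spem2 clusters the counting intervals of WT and KO overlapped, on 10 KO UMIs in the latter. Weighted equally over the clusters, its log2 ratio in the class was 0.75, that of Cyp51 was 0.35, and Cyp51 was then within 1.5-fold.

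Over the whole list of sterol synthesis enzymes, most stood low in the later germ cells. Of the enzymes with at least 10 UMIs in Leydig-like cells, 20 in WT and 21 in KO, 14 and 15 stood under 10% of their level there in late spermatocyte-like cells, 14 and 15 in the Ssxb1 cluster, 13 and 13 in round spermatid-like cells and 16 and 17 in elongating spermatid-like cells. Among all genes with at least 10 UMIs in Leydig-like cells, 8144 in WT and 15004 in KO, the share under 10% was 25.02% and 22.8% in late spermatocyte-like cells, 24.8% and 25.5% in the Ssxb1 cluster, 28.3% and 25.1% in round spermatid-like cells and 50.4% and 42.9% in elongating spermatid-like cells. Enzymes above their Leydig-like level numbered 1 in WT and 4 in KO in late spermatocyte-like cells, 2 and 3 in the Ssxb1 cluster and 2 and 2 in round spermatid-like cells, and 38.9% to 44.2% of all those genes were above it in these 3 groups. Idi1 was among them, at 199% in WT and 300% in KO in the Ssxb1 cluster and at 176% and 223% in round spermatid-like cells, where its KO percentages rest on a lower Leydig-like level. Leydig markers themselves stood at medians of 0.01% to 0.03% of their own level in WT and 0.14% to 0.30% in KO in these groups and in the Cst13 cluster. Single markers reached 4.12% in WT and 6.28% in KO, both in late spermatocyte-like cells. The part of Leydig RNA in the percentages of the enzymes was not tested.

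Insig1, the sterol-regulated retention protein, was higher in KO past 1.5-fold in late spermatocyte-like, round spermatid-like and elongating spermatid-like cells and in the Cst13 cluster. It stood at 7.85 CPM in WT and 17.5 in KO in round spermatid-like cells, at 57.3 and 92.96 in the Cst13 cluster and at 19.8 and 44.1 in elongating spermatid-like cells. In Leydig-like cells, as given above, it stood lower in KO, within 1.5-fold. Scarb1 in round spermatid-like cells stood at 48.2 CPM in WT and 40.1 in KO, within 1.5-fold. Besides Leydig-like cells, Scarb1 was lower in KO past 1.5-fold in late spermatocyte-like cells and the Ssxb1 cluster. It was higher past 1.5-fold in Sertoli-like cells, at 49.9 CPM in WT on 24 UMIs and 113 in KO.

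Across 31 points, the clusters of at least 20 cells in each library, the genes with the most similar profiles were named from 12973 genes by the Pearson correlation of log2(CPM + 1), a description over points that share libraries and depth. Hmgcs1 was most like Pgrmc1 (r = 0.91), Fdft1 most like Tiprl (r = 0.94) and Dhcr7 most like Brcc3 (r = 0.91). Lss was most like Gnb5 (r = 0.90), Cyp51 most like Fam210a (r = 0.90), and Fdps most like Rxra (r = 0.78). Among the 7 genes themselves the highest values were 0.81 for Hmgcs1 with Dhcr7 and 0.79 for Hmgcs1 with Lss, and the lowest was -0.14 for Fdps with Fdft1.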

How the data were processed

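Testis cells of 1 WT and 1 KO library were captured with a GEXSCOPE kit, and the authors deposited UMI counts per gene and barcode, without normalization. The submitters' processing notes name FastQC 0.11.7, STAR 2.5.3a, featureCounts 1.6.2 and Seurat; the methods name GRCh38, a human build, with Ensembl annotation 92, while the symbols are mouse ones. Genes listed in a single table counted as 0 in the other.

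All 5756 WT and 7012 KO barcodes had over 500 genes and were kept, which is more than the study states. Libraries were integrated in R 4.3.3 with Seurat 5.3.0 (2000 variable features, 20 anchor dimensions, 30 principal components, resolution 0.3), following the study's settings where it gives them. Of the 7 genes, 2 were among the variable features. A cluster took the class name whose markers had the largest average log2 fold, given at least 3 detected markers (a UMI in at least 10% of cells and at least 2 times the other cells), unless the next class lay within 0.25 or markers of another class led its leading genes. Scrublet in scanpy 1.11.5 called 4.22% of WT and 4.96% of KO cells doublets, which were kept.

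UMIs were summed per class and library in Python 3.11.15 and scipy 1.17.1. Sums have exact Poisson intervals, shares Clopper-Pearson intervals and ratios the exact conditional interval of 2 Poisson sums, at 95%. A gene was counted in a class with at least 50 UMIs over both libraries, and a ratio was past the threshold at 1.5-fold in either direction. TMM factors came from edgeR 4.0.16. The computation was tested on simulated data.

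The 7 genes and all gene lists were chosen with earlier results of these data known. The genes named were the 7 members, list genes past 1.5-fold or with the highest level in a class, and the genes with the most similar profiles; Insig1 and Srebf2 were singled out after their values were seen. Some genes are counted in the lists but not reported here. The 0.25 margin, the rule on leading genes and the alternative that leaves out a small cluster of spermatogonia-like cells were set after seeing the data. Settings varied were the genes per cell, resolution, integration, doublets, scaling, cluster weights and thresholds.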

Additional observations from a re-analysis of the deposited data

Results flagged for a closer look

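Fdps and Cyp51 differed between KO and WT in opposite directions in different cell classes. For Fdps the log2 ratio of KO to WT was 0.96 in Leydig-like cells and -0.998 in elongating spermatid-like cells, past 1.5-fold in both. The latter was -0.54 without integration, where the class took in a further cluster. For Cyp51 it was -0.65 in the Ssxb1 cluster and 0.78 in elongating spermatid-like cells, past 1.5-fold in both, although the former was -0.54 without integration and the latter 0.35 with equal weight per cluster, each within 1.5-fold. No Ssxb1 cluster was named at resolution 0.8. With 1 library per genotype, neither difference between classes was tested.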

How the results depend on the processing

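The log2 ratio of KO to WT of the 7 genes summed kept its value within counting error under most settings. In Leydig-like cells it was 0.12, and -0.0026 at resolution 0.8. In Sertoli-like cells it was 1.05, and 0.28 with TMM factors and 0.24 with median-of-ratios factors. In elongating spermatid-like cells it was 0.68, and 0.94 without integration, 0.51 with TMM factors, 0.50 with median-of-ratios factors and 0.34 with equal weight per cluster. Without integration no Cst13 cluster was named, and a cluster led by Gm30302, with 328 WT and 248 KO cells, was named elongating spermatid-like. Ratios without integration therefore cover different sets of cells. At resolution 0.8 no Ssxb1 cluster was named, so it has no ratio there. Clusters with Ssxb1 among their leading genes were then named round spermatid-like and late spermatocyte-like. In spermatogonia-like cells the summed ratio was 0.29 and in round spermatid-like cells -0.05, and with called doublets removed 0.45 and -0.094. In late spermatocyte-like cells it was -0.08, and 0.00093 when clusters weighed equally. The ratio of Dhcr7 in round spermatid-like cells was 1.06, and -0.12 without integration. The number of genes past the threshold was 3731 in Leydig-like cells, and 1828 at 2-fold, 16180 with no minimum of UMIs and 1361 at 200 UMIs. It was 6593 in Sertoli-like cells, and 19275 and 3281 under the last 2 settings. In the germ cell groups it was 1475 to 2980, and 530 to 1235 at 2-fold, 12252 to 15971 with no minimum and 312 to 1314 at 200 UMIs. The cause was not tested for any of these. No paired analysis was possible because each genotype had 1 library, and for the same reason no library could be left out.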
